A study of Mus musculus with 16 samples.

Results

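The genes described are those of the cytosolic ribosomal proteins, chosen by a symbol pattern (Rpl or Rps with a number and optional suffix, Rplp0 to Rplp2, and Rpsa) that leaves out symbols ending in a pseudogene number, in all 87 of 20072 genes. They comprise 51 genes named for the large subunit and 36 named for the small subunit. The annotation lists 82 of them as protein coding and 5 (Rps3a2, Rps3a3, Rps4l, Rps12l1 and Rpl32l) as processed pseudogenes. RNA came from enterochromaffin (EC) cells and other epithelial cells of the mouse small intestine, sorted from villus and crypt fractions into 4 groups of 4 bulk libraries each, namely villus EC, villus epi, crypt EC and crypt epi. All groups came from untreated mice aged 8 to 16 weeks that carried Tph1-CFP, a cyan fluorescent reporter under the gene of the serotonin-synthesising enzyme Tph1. EC libraries were made from CFP-positive cells and epi libraries from the mixed CFP-negative epithelium, with 5000 cells pooled in each library. The labels do not say which numbers mark separate mice, so p-values measure the spread between these libraries, which may in part be technical.

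Each cytosolic ribosome carries a single copy of most ribosomal proteins, and cells therefore make these proteins in near-balanced amounts from many genes scattered over the genome. Their messages are among the most abundant in dividing cells, and most begin with a run of pyrimidines that places their translation under mTORC1. In the small intestine, crypts hold stem, dividing and Paneth cells, and the cells of the villus have left the cell cycle. EC cells are the serotonin-producing endocrine cells of this epithelium and occur at both sites.

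To show the sequence around the start of some of these genes, stretches from 70 bases before to 20 bases after the annotated start are given. They cover 7 members that stand out in the results. Rpl12, Rpl13, Rps6 and Rps19 are among the members with the largest differences, Rps27 and Rps27l are a paralog pair whose levels diverged, and Rpl10a departed from the order of most members. Sequences are from RefSeq (GRCm38.p6), on the strand of the gene, for the first start listed, with runs of 8 or more pyrimidines in capitals.
Rpl12: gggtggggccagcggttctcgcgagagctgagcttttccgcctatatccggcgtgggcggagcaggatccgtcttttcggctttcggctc
Rpl13: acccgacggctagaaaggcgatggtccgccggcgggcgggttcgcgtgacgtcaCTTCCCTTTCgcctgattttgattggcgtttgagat
Rps6: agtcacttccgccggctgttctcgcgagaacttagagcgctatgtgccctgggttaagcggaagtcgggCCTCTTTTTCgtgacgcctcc
Rps19: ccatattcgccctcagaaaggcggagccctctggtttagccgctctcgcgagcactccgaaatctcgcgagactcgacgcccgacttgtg
Rps27: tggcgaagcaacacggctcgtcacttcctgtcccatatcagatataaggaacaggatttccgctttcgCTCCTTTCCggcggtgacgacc
Rps27l: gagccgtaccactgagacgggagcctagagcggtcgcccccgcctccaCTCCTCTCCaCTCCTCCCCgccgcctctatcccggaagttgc
Rpl10a: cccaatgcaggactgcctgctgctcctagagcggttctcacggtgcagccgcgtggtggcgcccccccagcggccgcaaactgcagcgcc

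These stretches lie at chr2:32961642-32961731 for Rpl12, chr8:123102280-123102369 for Rpl13, chr7:24884522-24884611 for Rps19, chr9:66946016-66946105 for Rps27l and chr17:28328401-28328490 for Rpl10a on the plus strand, and at chr4:86857348-86857437 for Rps6 and chr3:90213629-90213718 for Rps27 on the minus strand. RefSeq windows of 300 bases were matched by symbol for 63 of the 87 members. A run of 8 or more pyrimidines on the gene's strand within 50 bases of the start was present in 51 of these 63 windows (81.0%), against 35.7% of the windows of 27025 genes. Rpl12 and Rps19 are among the 51, with runs not wholly inside the stretches shown, and Rpl10a is not among them. The word CCGGAAG, the core bound by ETS factors, occurred on either strand in 24 member windows (38.1%), against 9.12% of all. The word AAGATGG, the core bound by YY1, occurred in 9 member windows (14.3%), against 6.48% of all, and TATAAA in 7 (11.1%), against 14.2% of all. CCGGAAG and AAGATGG can overlap by the letters AAG, so a window may hold both in 1 stretch. A match describes the letters only, and no match says only that they are not in this window.

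Values are FPKM as deposited, fragments per kilobase of transcript. The depth of the libraries is unknown, and library totals differed between groups (864600 ± 42073 in villus EC, 1346850 ± 104716 in villus epi, 748830 ± 15020.3 in crypt EC and 1091070 ± 38276 in crypt epi, SD, n = 4 each), so the summed share of a library is given beside the level. Tph1 was at 13600 to 17178 in villus EC and 22.8 to 87.2 in villus epi, and at 3678 to 6163 in crypt EC and 0.733 to 1.95 in crypt epi. Villus epi replicate 2 stood apart, with a mean Pearson correlation across genes of 0.812 with its group, against 0.923 to 0.985 for the other 15 libraries, and some results are also given without it. Ribosomal protein genes also have many processed pseudogene copies, and a median of 44.5% of the 31-base words in a member's transcripts also occur in other genes, so the split of reads between a member and its copies is uncertain.

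Together the 87 members took 1.73%, 1.67%, 1.82% and 1.83% of the library total in villus EC, and 0.421%, 0.532%, 0.513% and 0.484% in villus epi. They took 4.09%, 3.13%, 3.11% and 2.85% in crypt EC, and 3.38%, 3.10%, 3.61% and 3.42% in crypt epi. Villus EC and villus epi did not overlap and both lay below every crypt library, and crypt EC and crypt epi overlapped. As a summed level without regard to the total, the members reached 15246 ± 1208 in villus EC, 6544 ± 592 in villus epi, 24623 ± 3729 in crypt EC and 36811 ± 2236 in crypt epi (SD, n = 4 each). On this scale crypt EC libraries (21174 to 29922) all lay below crypt epi libraries (33502 to 38432). In bulk samples, fewer cells of a type with high levels and less of these messages per cell cannot be told apart.

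**Figure D1:**
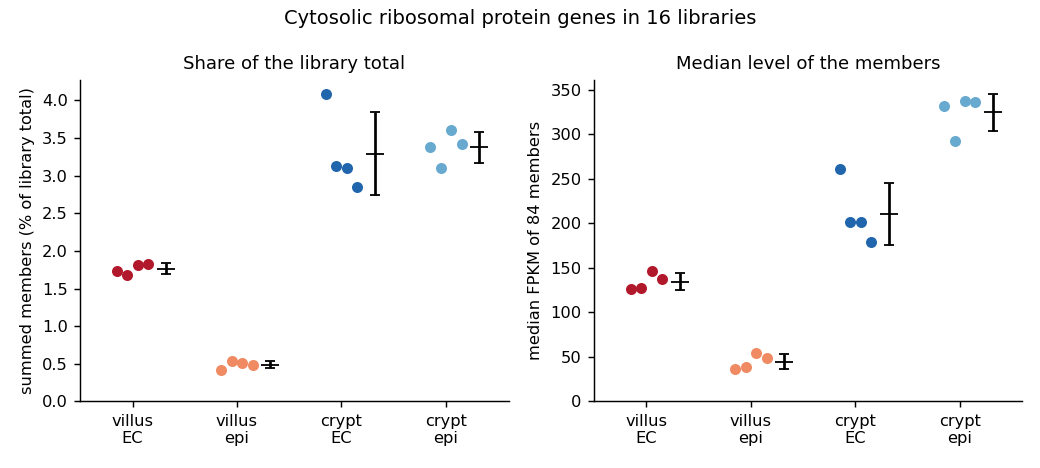
The 87 ribosomal protein genes as a percentage of each library's summed FPKM (left) and the median FPKM of the 84 tested members (right), in villus EC, villus epi, crypt EC and crypt epi. Points are libraries, bars are the mean and SD of 4. Villus epi is lowest on both axes (0.487% and 44.4 on average), and the crypt groups differ in the median level (211 in crypt EC, 325 in crypt epi) while their shares overlap.

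Single members spanned a wide range of levels. Of the 87 members, 60 had a mean of at least 100 over the 16 libraries. Rps3a3, one of the annotated pseudogenes, had the lowest (0.199). A filter of at least 1 in at least 4 libraries kept 84 members (49 of the large and 35 of the small subunit) and left out Rps3a3, Rpl32l and Rpl3l, the muscle-type paralog of Rpl3. Of the 84, 79 had the same order of group means, with crypt epi highest, then crypt EC, villus EC and villus epi. Across the 16 libraries, the Pearson correlation of a member's log2 level with the median of the other members was 0.976 in the median and above 0.9 for 75 members. The exceptions with the lowest values were Rps4l (0.19), Rps27l (0.38), Rpl28 (0.65, or 0.93 without villus epi replicate 2) and Rps2 (0.74, or 0.92). These correlations describe 16 libraries that differ by group and share their scaling within a library.

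The series asked how expression in EC cells differs from that in the other epithelial cells of each fraction. In the villus, most ribosomal protein genes were higher in EC cells. With limma on log2(FPKM + 1) and Benjamini-Hochberg adjustment over 14089 genes (called at an adjusted p under 0.05), 80 of the 84 tested members rose in villus EC relative to villus epi, where 40.6% of all genes were called higher, and 1 fell, where 21.6% were called lower. The median log2 fold change of the members was 1.48, against 0.33 for all genes. In 77 members every villus EC library lay above every villus epi library (share of all genes not counted). The 49 large-subunit genes had a median of 1.46 with 48 called higher, and the 35 small-subunit genes a median of 1.53 with 32 called higher.

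Rpl3 (chr15:80077791-80091868), a core protein next to the peptidyl transferase centre, was at 56.3, 56.2, 69.3 and 53.9 in villus EC, and at 4.03, 4.97, 7.68 and 6.06 in villus epi. The groups were far apart, with a log2 fold change of 3.19 ± 0.16 (SE, limma adjusted p = 1.76e-10), the largest among the members. Rpl10a, a protein of the L1 stalk of the large subunit, was at 226, 225, 235 and 233 in villus EC, and at 23.6, 32.3, 24.8 and 28.7 in villus epi. Its libraries did not overlap and its log2 fold change was 3.03 ± 0.11 (limma adjusted p = 4.14e-12). Rps6, the small-subunit protein that S6 kinase phosphorylates, averaged 335 ± 42.2 in villus EC and 66.2 ± 13.7 in villus epi (SD, n = 4 each), a log2 fold change of 2.34 ± 0.13 (limma adjusted p = 6.03e-10). Rpl13, a large-subunit protein, averaged 366 ± 22.7 in villus EC and 75.1 ± 20.2 in villus epi, a log2 fold change of 2.32 ± 0.18 (limma adjusted p = 1.63e-08). Rps6 and Rpl13 share 84.9% and 80.8% of their 31-base words with other genes, Rpl3 69.7% and Rpl10a 68.5%, so their exact levels are uncertain. Members with under 50% of shared words gave 51 of 54 called higher.

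Rps27l was the single member called lower. It is a paralog of Rps27 that p53 activates in human cells, and only 22.9% of its words are shared. It was at 314, 306, 368 and 372 in villus EC, and at 441, 535, 482 and 497 in villus epi. The groups did not overlap (log2 fold change -0.52 ± 0.11, limma adjusted p = 0.000794), but with each library scaled to the same total the sign turned to 0.11 (adjusted p = 0.447). Without villus epi replicate 2, 82 members were called higher and 2 lower (shares of all genes not counted). The second called lower was the pseudogene Rps4l (-0.91, limma adjusted p = 0.000111). With all libraries Rps4l had -0.53 as deposited and 0.09 with equal totals, neither called.

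In the villus comparison, markers of other cells moved as well. Absorptive enterocyte markers (Alpi, Fabp1, Apoa4 and 6 others) summed to 1809 to 2772 in villus EC and 100438 to 145700 in villus epi, with 8 of 9 called lower. Lymphocyte and myeloid markers (11 genes, of which 4 were tested and 2 called lower) summed to 15.2 to 78.1 in villus EC and 3217 to 7767 in villus epi. Most of the villus epi sum was 1 gene, Cd74, which averaged 28.4 in villus EC and 4902 in villus epi. Lyz2, the other gene called, averaged 10.7 and 37.1, and the genes not tested did not pass the filter. Mitochondrially encoded transcripts took 2.34% ± 0.121 of the total in villus EC and 10.8% ± 4.03 in villus epi. Cell cycle genes (14 markers such as Mki67 and Mcm2) summed to 64.1 to 77.9 in villus EC and 50.4 to 87.7 in villus epi, so these ranges overlapped, with 2 called higher and 2 lower. Goblet cell markers (6 genes) summed to 6077 to 8929 in villus EC and 19047 to 37679 in villus epi, with 5 called lower. The part of these cells and transcripts in the difference was not tested.

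In the crypt, ribosomal protein genes were lower in EC cells on the deposited scale, the opposite direction to the villus, and mostly not with equal library totals. None of the 84 was called higher in crypt EC than in crypt epi (23.2% of all genes were), and 53 were called lower (20.0% of all genes). The median log2 fold change was -0.56 against 0.05 for all genes. In 51 members every crypt EC library lay below every crypt epi library (share of all genes not counted). This call depended on the scaling. With each library set to the same total, 3 members were called higher (42.5% of all genes) and 4 lower (10.2% of all genes), with a median of -0.02 against 0.50 for all genes. With median-ratio scaling, 0 members were called higher (19.4% of all genes) and 60 lower (24.1% of all genes), with a median of -0.72 against -0.08 for all genes. Without villus epi replicate 2, which enters the shared fit, 1 was called higher and 74 lower (shares of all genes not counted). Equal totals moved the median of all genes, and relative to that median the members lay at -0.61 as deposited and -0.53 with equal totals. The same relative medians were 1.15 and 1.25 for villus EC against villus epi, -0.64 and -0.66 for villus EC against crypt EC, -2.44 and -2.50 for villus epi against crypt epi, and 1.78 and 1.84 for the interaction.

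Some members with large decreases in the crypt kept their calls with equal totals. Rpl12, at the base of the ribosomal stalk, was at 9.93, 7.38, 7.67 and 7.62 in crypt EC, and at 20.7, 17.9, 22.9 and 19.9 in crypt epi. All crypt EC libraries were lower (log2 fold change -1.23 ± 0.16, limma adjusted p = 1.10e-05). Rpl13 and Rps4x, the X-linked small-subunit protein, fell with log2 fold changes of -0.92 ± 0.18 and -0.91 ± 0.14 (limma adjusted p = 0.000570 and 8.62e-05). With equal totals, Rpl12, Rpl13 and Rps4x were among the 4 members called lower, and Rplp1, Rpl26 and Rpl10a the 3 called higher. Rpl12, Rpl13 and Rps4x share 49.8%, 80.8% and 78.4% of their words with other genes, so their exact levels are uncertain.

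Cell cycle markers summed to 281 to 423 in crypt EC and 953 to 1150 in crypt epi, with 14 of 14 called lower in crypt EC. Paneth cell markers (7 genes) summed to 5875 to 8942 in crypt EC and 180386 to 210067 in crypt epi, with 7 of 7 called lower. Goblet cell markers (6 genes) summed to 2052 to 2622 in crypt EC and 54265 to 66498 in crypt epi, with 6 of 6 called lower. Stem cell markers (5 genes, such as Lgr5 and Olfm4) summed to 937 to 1477 in crypt EC and 1488 to 1686 in crypt epi, with 3 called lower as deposited and 0 with equal totals. Their part in the ribosomal protein difference was not tested.

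**Figure D2:**
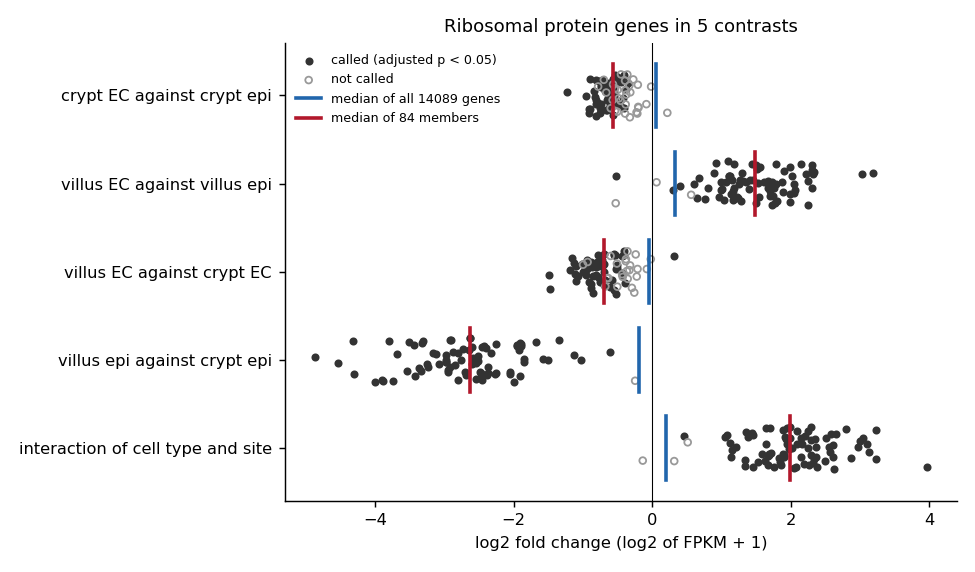
Log2 fold change of the 84 tested members in each contrast (x axis, log2 of FPKM + 1). Filled points were called at an adjusted p under 0.05 and open points were not, red lines are the members' medians and blue lines the medians of all 14089 genes. The members' median is -0.56 in the crypt contrast of EC and epi (-0.02 with equal library totals), 1.48 in the villus contrast, -0.69 and -2.63 for villus against crypt in EC and epi, and 1.99 for the interaction.

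Between the sites, ribosomal protein genes were lower in the villus in both populations, and by much more in epi. In epi, 83 of 84 members were called lower in the villus than in the crypt (35.4% of all genes) and none higher (19.6% of all genes), with a median log2 fold change of -2.63 against -0.19 for all genes. In 82 members every villus epi library was below every crypt epi library (share of all genes not counted), and Rps4l was the member not called. In EC, 59 members were called lower in the villus (16.2% of all genes) and 1 higher (10.3% of all genes), with a median of -0.69 against -0.05 for all genes. The interaction, which asks whether the EC difference between villus and crypt differs from the epi difference, was called higher for 81 of 84 members (26.9% of all genes) and lower for none (16.0% of all genes). Its median was 1.99, against 0.21 for all genes. Without villus epi replicate 2 the interaction was called for 83 members (share of all genes not counted).

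Rpl3 had the largest decrease in epi and the largest interaction. The villus values given above stood against 134, 114, 107 and 90.1 in crypt EC, and 199, 182, 185 and 195 in crypt epi. Villus epi lay below crypt epi by a log2 fold change of -4.87 ± 0.16 (limma adjusted p = 5.16e-12), and villus EC below crypt EC by -0.90 ± 0.16 (adjusted p = 0.000625). The interaction was 3.97 ± 0.23 (limma adjusted p = 1.03e-08). The next largest interactions were those of Rpl10a (3.24 ± 0.15), Rpl13 (3.23 ± 0.25) and Rpl32 (3.14 ± 0.44), the last a large-subunit protein (limma adjusted p = 1.99e-09, 1.30e-07 and 3.72e-05).

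Rps19, a small-subunit protein mutated in Diamond-Blackfan anaemia in humans, was at 222, 231, 235 and 254 in villus EC, and at 822, 628, 673 and 550 in crypt EC. It was at 55.9, 34.7, 71.6 and 53.2 in villus epi, and at 1245, 1203, 1272 and 1198 in crypt epi. It fell at the villus in both populations without overlap, by log2 fold changes of -1.49 ± 0.17 in EC (limma adjusted p = 1.15e-05) and -4.53 ± 0.17 in epi (limma adjusted p = 1.79e-11). Its transcripts share 17.7% of their words with other genes. Rpl32 fell in villus EC relative to crypt EC by -1.19 ± 0.31 (limma adjusted p = 0.00929). Rpl32 and Rpl13 fell in villus epi relative to crypt epi by -4.32 ± 0.31 and -4.31 ± 0.18 (adjusted p = 1.19e-08 and 3.63e-11).

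Cell cycle markers were lower in the villus for 13 of 14 genes in EC and 14 of 14 in epi, and stem cell markers for 5 of 5 in each. Absorptive enterocyte markers were higher in villus epi for 9 of 9 genes, and Paneth markers lower for 7 of 7. Their part in the ribosomal protein differences was not tested.

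The proteins of the 3 stalk genes recruit the elongation factors. Rplp0, the base of the stalk, averaged 261 ± 21.4 in villus EC, 74.0 ± 27.1 in villus epi, 486 ± 68.1 in crypt EC and 903 ± 25.9 in crypt epi (SD, n = 4 each). Rplp2, one of the stalk's lateral proteins, averaged 147 ± 14.8, 67.6 ± 21.1, 242 ± 49.1 and 397 ± 42.1 in the same groups. Both followed the common order. Rplp1, the partner of Rplp2, was at 145, 165, 169 and 156 in villus EC and 81.9, 116, 107 and 93.8 in villus epi. It was at 509, 430, 429 and 403 in crypt EC and 388, 354, 387 and 388 in crypt epi. Among the 84 tested members, Rplp1 was the only one with its highest mean in crypt EC, where all 4 libraries exceeded crypt epi, although the difference of 0.22 ± 0.11 was not called (limma adjusted p = 0.143) and was called with equal totals (0.76, adjusted p = 0.000197) and without villus epi replicate 2 (adjusted p = 0.0425). It fell in villus EC relative to crypt EC by -1.47 ± 0.11 (limma adjusted p = 1.93e-07), where Rplp0 had -0.89 ± 0.23 and Rplp2 -0.70 ± 0.20, and the difference between these genes was not tested. Rplp1 shares 75.1% of its words with other genes.

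Among the 84 tested members, Rpl10a was the only one with its highest mean in villus EC, and the only one called higher in villus EC than in crypt EC. The villus EC values given above stood against 198, 174, 188 and 177 in crypt EC, and 234, 196, 212 and 206 in crypt epi. Villus EC lay above every crypt EC library and overlapped crypt epi. The rise over crypt EC was small (log2 fold change 0.32 ± 0.11, limma adjusted p = 0.0363). It was not called with equal totals (0.11, adjusted p = 0.560), and leaving out any 1 EC library other than crypt EC replicate 1 (7 libraries) gave adjusted p from 0.0645 to 0.0992. Relative to the median member it was 0.95 (adjusted p = 0.000306).

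**Figure D3:**
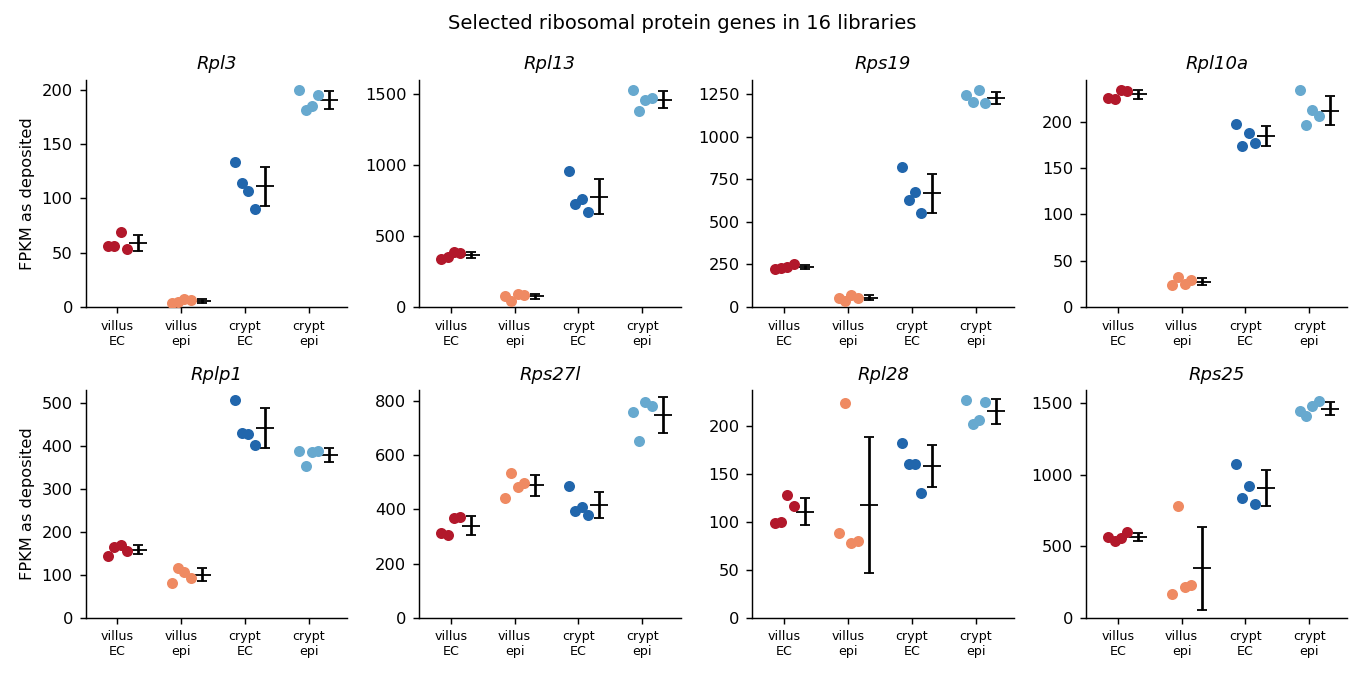
FPKM of 8 members in each library (points), with mean and SD of 4 (bars), in villus EC, villus epi, crypt EC and crypt epi. Rpl3, Rpl13 and Rps19 show the common order, Rpl10a is highest in villus EC (230 on average), Rplp1 in crypt EC (443), Rps27l is higher in villus epi (489) than in villus EC (340), though not with equal library totals, and 1 villus epi library sets the means of Rpl28 and Rps25.

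Rpl28, a large-subunit protein, and Rps25, a small-subunit protein used in internal ribosome entry, depended on villus epi replicate 2. Rpl28 was at 98.7, 99.7, 128 and 117 in villus EC, and at 87.9, 224, 78.1 and 79.7 in villus epi. Rps25 was at 564, 533, 556 and 601 in villus EC, and at 169, 780, 212 and 226 in villus epi. In both genes replicate 2 lay above all villus EC libraries and the other 3 villus epi libraries below them. With that library, the log2 fold changes of villus EC against villus epi were 0.06 ± 0.26 for Rpl28 (limma adjusted p = 0.847) and 0.99 ± 0.33 for Rps25 (limma adjusted p = 0.0162). Without it they were 0.42 (adjusted p = 0.00297) and 1.48 (adjusted p = 5.24e-09). Rps12l1 was listed at 0 in that library and at 16.7 to 21.4 in the other villus epi libraries.

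To ask whether members moved in step, each library was also scaled to its median member. On that scale 30 members were called higher in villus epi than in crypt epi and 17 lower, against 91.6% and 2.06% of all genes. The members furthest below the family were Rpl3 (-2.01), Rps19 (-1.67), Rpl32 (-1.46) and Rpl13 (-1.45). Those furthest above it were Rps4l (2.61), Rps27l (2.25), Rpl28 (1.84) and Rpl29 (1.73). Rpl7l1, a paralog of Rpl7, Rpl36al and Rplp1 were also above it, at 1.35, 0.95 and 0.93. This scaling was not repeated without villus epi replicate 2, in which Rpl28 was at 224, against 78.1 to 87.9 in the other villus epi libraries.

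The other contrasts gave fewer such departures. In villus EC against villus epi, 13 members were above and 30 below the median member (9.20% and 68.0% of all genes were called higher and lower). In villus EC against crypt EC, 6 were above and 9 below (37.5% and 5.56% of all genes), led by Rpl10a and by Rps19 (-0.85). In crypt EC against crypt epi, 6 were above and 2 below (47.0% and 7.10% of all genes), with Rplp1 (0.85) furthest above and Rpl12 (-0.59) furthest below. In the interaction, 9 were above and 25 below (1.68% and 80.6% of all genes), with Rpl3 (1.75) and Rpl10a (1.01) among those above, and Rps4l (-2.36), Rps27l (-1.90) and Rplp1 (-1.77) below.

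**Figure D4:**
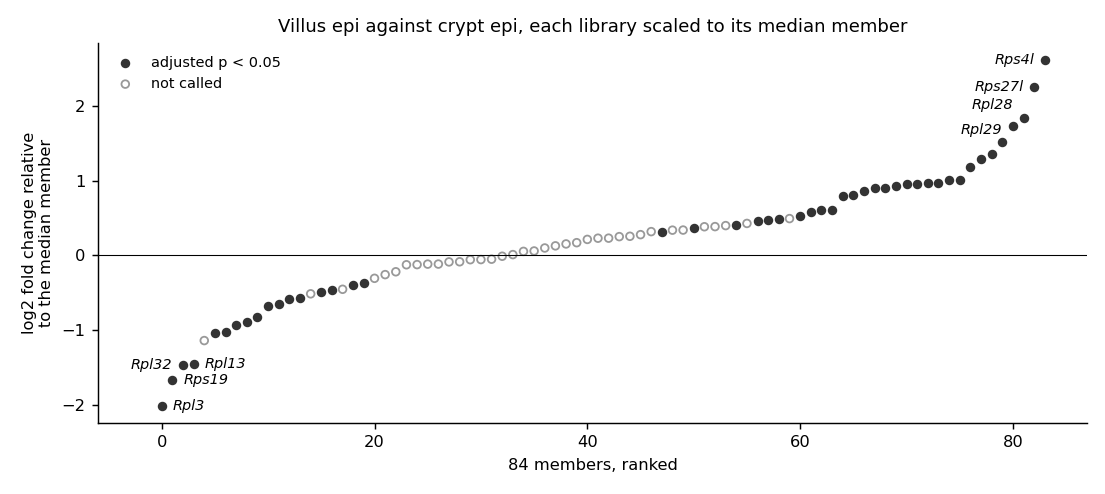
Log2 fold change of the 84 tested members in villus epi against crypt epi after each library was scaled to its median member (y axis), ranked (x axis). Filled points had an adjusted p under 0.05 and open points did not. Rpl3 (-2.01) is furthest below the median member and Rps4l (2.61) and Rps27l (2.25) furthest above.

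Paralogs were compared with their canonical partners by their ratio within a library, which does not depend on the scaling of the library. Rps27l to Rps27 had a median ratio of 0.522 (0.497 to 0.566) in villus EC and 1.51 (1.31 to 2.04) in villus epi, and of 0.434 (0.408 to 0.489) in crypt EC and 0.592 (0.579 to 0.625) in crypt epi. Rps27l exceeded Rps27 in all 4 villus epi libraries and in none of the other 12. Rps27 itself averaged 647 ± 76.8 in villus EC, 317 ± 62.3 in villus epi, 955 ± 174 in crypt EC and 1251 ± 92.1 in crypt epi (SD, n = 4 each), and both Rps27 and Rps27l fell in villus epi relative to crypt epi (limma adjusted p = 3.01e-08 and 0.000250).

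Rpl36al to Rpl36a had a median ratio of 5.49 in villus EC, 8.10 in villus epi, 3.17 in crypt EC and 2.64 in crypt epi. Every villus library (4.98 to 10.7) exceeded every crypt library (2.38 to 3.61). Rpl36al was at 316 to 387 in villus EC and 345 to 383 in crypt EC, which overlapped, with a log2 difference of -0.02 ± 0.11 (limma adjusted p = 0.937). Rpl36a shares 87.6% of its words with other genes. Rpl22l1 to Rpl22 had a median ratio of 1.81, 2.11, 1.53 and 1.12 in villus EC, villus epi, crypt EC and crypt epi, and its villus epi libraries spread from 0.755 to 2.76. Rpl7l1 to Rpl7 reached at most 0.704 in any library, with medians of 0.189, 0.272, 0.141 and 0.159 in the same groups.

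**Figure D5:**
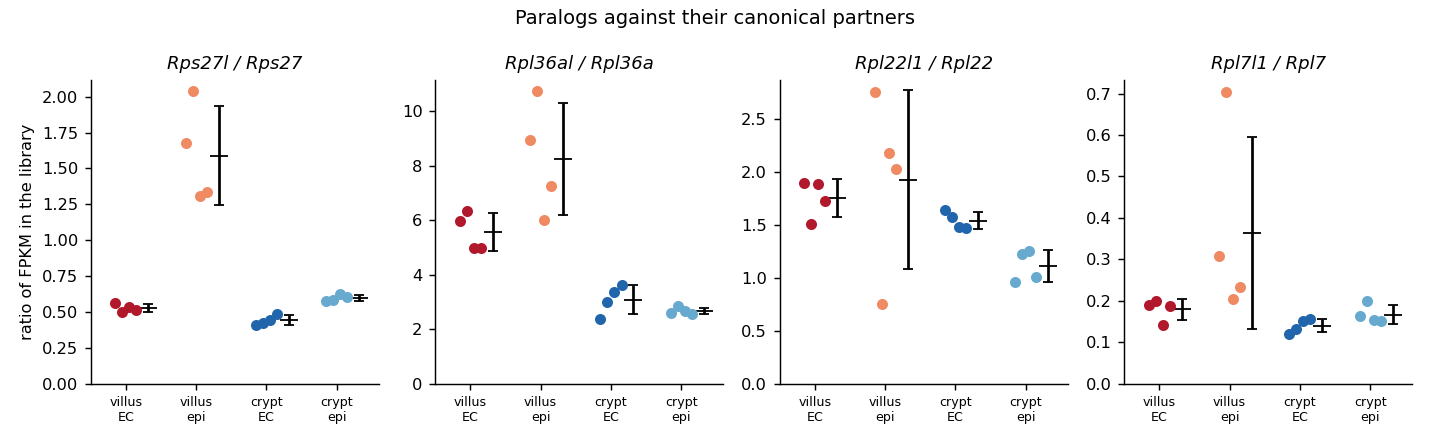
Ratio of FPKM of 4 paralogs to their canonical partners in each library (points), with mean and SD of 4 (bars), in villus EC, villus epi, crypt EC and crypt epi. Rps27l/Rps27 is above 1 in the villus epi libraries alone (1.31 to 2.04), and Rpl36al/Rpl36a is higher in every villus library than in any crypt library.

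Rack1 and Fau, ribosomal protein genes that the symbol pattern misses, differed from each other in the villus. Rack1, the scaffold protein of the small subunit, averaged 109 in villus EC and 46.9 in villus epi, and rose in villus EC by 1.32 ± 0.23 (limma adjusted p = 0.000128). Fau, which encodes a ubiquitin-like protein fused to Rps30, was at 207, 226, 217 and 265 in villus EC, and at 674, 961, 727 and 722 in villus epi. Every villus epi library was the higher, a log2 fold change of -1.74 ± 0.12 (limma adjusted p = 6.30e-09), and Fau was also higher in villus epi than in crypt epi (351 to 387) by 1.07 ± 0.12 (limma adjusted p = 2.15e-06).

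Copies of the members were listed under pseudogene names in 69 rows, and their summed level was 9.51% to 18.1% of that of the members. For some members most of the signal was listed under a copy. Rps2 had a mean of 2.11 over the 16 libraries and Rps2-ps13 one of 641, Rps18 had 12.1 and Rps18-ps6 352, and Rpl3 had 91.5 and Rpl3-ps1 275. Rpl3-ps1 had the order of Rpl3, with means of 157 in villus EC, 17.8 in villus epi, 354 in crypt EC and 570 in crypt epi. The annotation lists some rows under pseudogene names, such as Rps18-ps6, as protein coding. Of 43 tested rows under such names, 24 were called higher and 3 lower in villus EC relative to villus epi. In villus epi relative to crypt epi, 3 were called higher and 25 lower. Of all genes, 40.6% and 21.6% were called higher and lower in the first of these contrasts, and 19.6% and 35.4% in the second.

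Other genes of ribosome production and translation were described from lists that were chosen with earlier results of these data known. Their counts stand against the shares of all genes, which were 40.6% higher and 21.6% lower in villus EC relative to villus epi, 23.2% and 20.0% in crypt EC relative to crypt epi, 10.3% and 16.2% in villus EC relative to crypt EC, and 19.6% and 35.4% in villus epi relative to crypt epi. Of 51 ribosome biogenesis genes, 48 were called higher and 1 lower in villus EC relative to villus epi, 0 and 26 in crypt EC than in crypt epi, 0 and 23 in villus EC than in crypt EC, and 0 and 50 in villus epi than in crypt epi. With equal totals the crypt count was 0 higher and 2 lower (42.5% and 10.2% of all genes). Nop56, a core protein of the box C/D particles that methylate ribosomal RNA, was at 91.8, 88.4, 102 and 75.8 in villus EC, and at 9.82, 6.85, 5.12 and 8.54 in villus epi. These did not overlap (log2 fold change 3.42 ± 0.17, limma adjusted p = 1.13e-10). Of 14 RNA polymerase I genes, 11 were called higher and 1 lower in villus EC relative to villus epi, and 0 and 11 in villus epi than in crypt epi.

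Of 7 elongation factor genes, 6 were called higher and 0 lower in villus EC relative to villus epi, and 7 lower in villus epi than in crypt epi. Eef1a1, which delivers aminoacyl-tRNA, averaged 579 in villus EC, 180 in villus epi, 813 in crypt EC and 1014 in crypt epi. Of 30 initiation factor genes, 20 were called higher and 1 lower in villus EC relative to villus epi, and 1 higher and 23 lower in villus epi than in crypt epi. Of 20 cytosolic tRNA synthetases, 13 were called higher and 1 lower in villus EC relative to villus epi. The 80 mitochondrial ribosomal protein genes had 26 called higher and 20 lower in villus EC relative to villus epi, with a median of 0.16 against 0.33 for all genes. These shares are near those of all genes. With equal totals the counts were 51 higher and 3 lower, but the shares of all genes were not counted on that scale. The median there was 0.78, near the 0.81 of all genes. In villus epi against crypt epi, the mitochondrial genes had 2 called higher and 62 lower, with a median of -1.02 against -0.19 for all genes. In crypt EC against crypt epi they had 1 called higher and 43 lower (23.2% and 20.0% of all genes). Their median there was -0.61, near the -0.56 of the cytosolic members. With equal totals these crypt counts were 5 and 5 (42.5% and 10.2% of all genes).

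Of 20 genes of mTORC1 signalling and related control, 7 were called higher and 3 lower in villus EC relative to villus epi, and 3 and 7 in crypt EC than in crypt epi, counts near the shares of all genes in the villus. Myc, a transcription factor with many ribosomal targets, averaged 1.14 in villus EC, 1.60 in villus epi, 20.8 in crypt EC and 57.3 in crypt epi. It fell in crypt EC relative to crypt epi by -1.42 ± 0.21 (limma adjusted p = 5.69e-05) and was low in both villus groups. Eif4ebp1, which represses cap-dependent translation, averaged 25.8 in villus EC, 20.3 in villus epi, 18.9 in crypt EC and 61.4 in crypt epi. It fell in crypt EC relative to crypt epi by -1.65 ± 0.15 (limma adjusted p = 3.01e-07). Among the 3 called lower in villus EC relative to villus epi, Max averaged 22.4 and 205 in those groups, and Eif4ebp3 2.13 and 28.8. Their log2 fold changes were -3.04 ± 0.26 and -2.97 ± 0.46 (limma adjusted p = 6.06e-08 and 4.28e-05). Tsc1, among the 7 called higher, averaged 12.6 and 4.25, a log2 fold change of 1.47 ± 0.27 (limma adjusted p = 0.000220).

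Outside the family, the genes whose log2 level was most like the median member over the 16 libraries were Snrpf, Hspd1, Snrpb and Npm1, with Pearson correlations of 0.993, 0.993, 0.993 and 0.992. The next had pseudogene names, Rpl15-ps3, Rpl3-ps1, Rps18-ps6 and Rps18-ps5 (0.992 each), followed by U2af1 and Lrpprc (0.991 each). The annotation lists Rps18-ps6 and Rps18-ps5 as protein coding. Snrpf and Snrpb encode core proteins of the spliceosomal particles, Hspd1 a mitochondrial chaperonin and Npm1 a nucleolar protein of ribosome assembly. Npm1 averaged 90.5 in villus EC, 23.3 in villus epi, 187 in crypt EC and 261 in crypt epi. All libraries share their group structure in these correlations, which are descriptions.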

How the data were processed

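Bulk RNA was measured in 16 libraries, 4 in each of villus EC, villus epi, crypt EC and crypt epi, with groups taken from the sample titles. Per the labels' protocols, full-length cDNA was amplified with a SMART-Seq HT kit and libraries were made with Nextera XT. The authors deposited gene-level FPKM values, and the submitters' processing notes list bcl2fastq 2.20, kallisto, sleuth and the build mm10. How libraries were scaled and which annotation was used is not given in the sources used here. No read counts were used, so depth and counting precision are unknown. Transcript-level estimates of this kind share reads between near-identical copies, which touches ribosomal protein genes in particular.

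Members and lists were chosen with earlier results of these data known. No rescaling was applied, and tests used log2(FPKM + 1). Genes with at least 1 in at least 4 libraries (14089) were tested in 1 fit of 4 group means with limma 3.58.1 in R 4.3.3 (eBayes with a trend), two-sided, with Benjamini-Hochberg adjustment within each of 5 contrasts. Printed errors are SD of FPKM over 4 libraries or SE of a log2 fold change, which is computed on log2(FPKM + 1) and understates changes of low genes. Members named in each contrast are the 4 called with the largest increase and the 4 with the largest decrease, plus stalk genes, paralogs and their partners, the highest and lowest member, the ribosomal proteins outside the symbol pattern, up to 3 called genes per contrast from each other list, and the 10 genes most like the median member. Rpl28, Rps25, Rps2, Rps18, Rpl29, Rps12l1 and Rpl26 were singled out after their values were seen. Some genes that the rule names are not reported here. Alternatives changed the scaling, pseudocount, filter, libraries in the fit and replicate block. Positions and 31-base words came from GENCODE M21 (GRCm38) and promoter windows from RefSeq (GRCm38.p6). The fit was tested on simulated data. Figures used matplotlib 3.10.9 in Python 3.11.15.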

Additional observations from a re-analysis of the deposited data

Results flagged for a closer look

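Chance flags about 1 in 20 independent groups of 4 libraries, but the groups examined here share libraries and members that moved together. The flags are therefore not separate events. Of the 100 groups examined for a library far from the other 3, 10 had one. Crypt epi replicate 2 was the low library in 6 of them, with Rpl36al at 502 (the other 3 at 548 to 552), Rpl7 at 354 (440 to 450), Rplp1 at 354 (387 to 388) and Rps4x at 288 (327 to 330). In the same library the members summed to 33502 (37622 to 38432), and their median log2 level was 8.20 (8.38 to 8.40). Rpl12 was high in crypt EC replicate 1, at 9.93 (7.38 to 7.67), and Rpl3 in villus EC replicate 3, at 69.3 (53.9 to 56.3). In villus epi replicate 2, Rpl36al was low, at 116 (150 to 155), and the median log2 level of large-subunit genes exceeded that of small-subunit genes by 0.33, where the other 3 lay between -0.49 and -0.39.

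The difference between villus and crypt was itself different in EC cells and in epi. The interaction was called for 81 members, and was largest for Rpl3 (3.97), Rpl10a (3.24), Rpl13 (3.23) and Rpl32 (3.14).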

How the results depend on the processing

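The medians of the members kept their direction under every setting run except scaling to the median member, which removes the shared change by construction. With equal library totals, 3 members were called higher and 4 lower in crypt EC against crypt epi (42.5% and 10.2% of all genes). On that scale, 0 were called lower in villus EC against villus epi and 0 higher in villus EC against crypt EC. Shares of all genes were not counted for those contrasts. The sign of the log2 fold change then turned for 36 of 84 members in crypt EC against crypt epi and for 2 in villus EC against villus epi, among them Rpl10a (0.34) and Rps27 (0.14) in the first and Rps27l (0.11) in the second. Median-ratio scaling gave 2 called lower in villus EC against villus epi. The cause was not tested. A fit of only the groups compared gave 1 higher in crypt EC against crypt epi.

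Relative to the median member, counts higher and lower were 6 and 2 in crypt EC against crypt epi, 13 and 30 in villus EC against villus epi, 6 and 9 in villus EC against crypt EC, 30 and 17 in villus epi against crypt epi, and 9 and 25 in the interaction. Medians of the members were 0.068, -0.11, 0.23 and -0.23 in crypt EC against crypt epi, villus EC against villus epi, villus epi against crypt epi and the interaction. Signs turned for 54, 47, 37, 51 and 52 of the 84 members in crypt EC against crypt epi, villus EC against villus epi, villus EC against crypt EC, villus epi against crypt epi and the interaction, and only those of the named members follow. They turned in crypt EC against crypt epi for Rpl10a (0.43), Rpl36al (0.063) and Rps27 (0.23). They turned in villus EC against villus epi for Rpl22 (-0.36), Rpl22l1 (-0.34), Rpl36al (-0.27), Rpl7 (-0.45), Rpl7l1 (-1.29), Rplp1 (-0.92), Rplp2 (-0.44), Rps27 (-0.55) and Rps4x (-0.18). They turned in villus EC against crypt EC for Rpl22 (0.027), Rpl36al (0.62), Rpl7l1 (0.20), Rps27 (0.087) and Rps27l (0.34). They turned in villus epi against crypt epi for Rpl22 (0.34), Rpl22l1 (0.96), Rpl36al (0.95), Rpl7 (0.38), Rpl7l1 (1.35), Rplp1 (0.93), Rplp2 (0.28), Rps27 (0.86), Rps27l (2.25) and Rps4l (2.61). They turned in the interaction for Rpl22 (-0.31), Rpl22l1 (-0.76), Rpl36al (-0.34), Rpl7 (-0.55), Rpl7l1 (-1.15), Rplp1 (-1.77), Rplp2 (-0.34), Rps27 (-0.78) and Rps27l (-1.90).

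Same-numbered libraries did not deviate together (correlations of -0.27 to 0.17), so the numbers were not taken to pair them. With a replicate block, 49 members were called lower in crypt EC against crypt epi, and 0 higher and 51 lower in villus EC against crypt EC. With a block by library number these were 36, 0 and 41, and 0 were called lower in villus EC against villus epi. Leaving out 1 library at a time gave 0 to 1 higher and 42 to 74 lower in crypt EC against crypt epi, 78 to 82 and 1 to 2 in villus EC against villus epi, 0 to 1 and 40 to 75 in villus EC against crypt EC, 83 lower in villus epi against crypt epi, and 78 to 83 higher in the interaction. Shares of all genes were not counted in the fits with a block or with 1 library left out. After the data were seen, members were summed with their named pseudogenes, which gave 0 higher in villus EC against crypt EC, and restricted to the 54 with under 50% shared words, which gave 51 higher in villus EC against villus epi, 0 higher and 37 lower in villus EC against crypt EC, 53 lower in villus epi against crypt epi and 51 higher in the interaction. Without villus epi replicate 2, calls were gained among the named members in crypt EC against crypt epi by Rpl10a, Rpl7, Rplp1 and Rps4l (adjusted p = 0.0251, 0.00452, 0.0425 and 0.0330), in villus EC against crypt EC by Rpl22l1, Rps27l and Rps4l (0.0209, 0.0210 and 0.0487), and in the interaction by Rps27l (0.0369), all from limma, and Rps4l in villus epi against crypt epi was 0.13 and not called. Over all alternatives for the named members, a call was lost in 100 values and gained in 26, and 39 values called in either fit turned sign. Depth is unknown, so what it limits cannot be given.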
